A study of Homo sapiens with 2 samples.

Results

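NF-κB is a family of dimeric transcription factors. The genes that encode its subunits and its feedback inhibitors were examined here by their RNA levels in RBMS1-depleted and control MDA-MB-231 cells. The set holds 10 genes, chosen by symbol: the subunit genes NFKB1, NFKB2, RELA, RELB and REL, the IκB genes NFKBIA, NFKBIB and NFKBIE, and TNFAIP3 and TNIP1, which encode A20 and its binding partner ABIN1. They are 10 of the 49627 genes listed in the deposited transcript files, and all 10 had a mean level of at least 1 FPKM, as did 11186 genes in all. FPKM counts the fragments of a transcript relative to its length and to the size of the library, so that levels can be compared between genes.

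The RNA-seq data comprised 2 libraries, each from MDA-MB-231, an established human triple-negative breast cancer line of mesenchymal character. The library labelled RBMS1 knockdown came from cells in which RBMS1, an RNA-binding protein, was depleted with a short hairpin RNA delivered by a pLKO.1 lentivirus, and the control library came from cells of the same line with the empty vector. Both were kept in L15 medium with serum and without added carbon dioxide, and both had passed through infection and drug selection. The labels do not say which hairpin was used. They name no time point and no stimulus of NF-κB, and the study used the RNA-seq to ask how RBMS1 acts on PD-L1 glycosylation. With 1 library per group there is no replicate check and no test between the groups, so every value below describes these 2 libraries.

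In resting cells NF-κB dimers are held in the cytoplasm by IκB proteins. When a receptor such as that for TNF or interleukin-1 is engaged, the IκB kinase complex marks the IκB proteins for destruction and the dimers enter the nucleus, where they bind κB sites in DNA. Among the genes they switch on are those of their own inhibitors, which ends the signal, and those of several subunits. RELA and the p50 product of NFKB1 carry most of the canonical response, while RELB and the p52 product of NFKB2 carry the slower, non-canonical one. MDA-MB-231 is known for NF-κB activity without added stimulus.

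The κB sites near the starts of these genes are shown first, because feedback by the family is known to act through such sites. RefSeq promoter windows, from 250 bases before to 50 after a start (GRCh38.p14), were given for 8 of the 10 genes, all but RELB and NFKBIE. The classical κB consensus, a motif of 10 letters searched on both strands, was found in 7 of these 8 genes, which is 87.5%. RELA had none. The same motif lay in the windows of 1434 of 8274 tested genes with a window, which is 17.3%, and in 11.3% of all 35116 windows. The genes were known as NF-κB targets when they were chosen, so the share is a description of the set, and a match is a run of letters, not a shown binding site. Each stretch below is read 5′ to 3′ on the strand of its gene, with the motif in capitals. For NFKBIA it is the whole 100 bases before the start, and for NFKB2 the sites nearest to each of its 2 starts with a match are shown.
REL (chr2:60881518-60881546, plus strand): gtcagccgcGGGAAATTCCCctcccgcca
NFKB1 (chr4:102501300-102501329, plus strand): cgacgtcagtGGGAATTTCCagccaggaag
NFKB2, upstream start (chr10:102394490-102394519, plus strand): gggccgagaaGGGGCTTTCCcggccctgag
NFKB2, downstream start (chr10:102395674-102395703, plus strand): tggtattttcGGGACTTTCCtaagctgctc
NFKBIA (chr14:35404750-35404849, minus strand): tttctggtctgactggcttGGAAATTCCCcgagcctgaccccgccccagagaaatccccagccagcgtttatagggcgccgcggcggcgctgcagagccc
NFKBIB (chr19:38899932-38899960, plus strand): ggcgtggtgGGGAATTTCCCgcagggcgg
TNFAIP3, upstream site (chr6:137867182-137867211, plus strand): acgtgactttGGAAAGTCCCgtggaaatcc
TNFAIP3, downstream site (chr6:137867194-137867223, plus strand): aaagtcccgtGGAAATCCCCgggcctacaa
TNIP1 (chr5:151081057-151081086, minus strand): ccagtctccgGGGACTTTCCcaggggtggg

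The motif began 47 bases before the start in REL and 49 in NFKB1, and 42 in TNIP1. In NFKBIA it began 81 bases before the start. In NFKBIB the printed match began 28 bases before the start, and a further match, not printed, began 38 bases after it. TNFAIP3 held a pair of matches, 67 and 55 bases before its start, so that the stretches printed for them overlap. NFKB2 had 4 matches over its windows, the printed ones at 78 and 21 bases before their starts.

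The targeted gene and the line were checked first. RBMS1 itself was at 3.76 FPKM under RBMS1 knockdown and at 24.1 FPKM in the control, 15.6% of the control level, and the intervals that Cufflinks gives for each library, 3.12 to 5.39 and 21.7 to 27.7 FPKM, were apart. VIM, CD44, AXL and CAV1, which mark the mesenchymal state of the line, lay between 154 and 496 FPKM under RBMS1 knockdown and between 112 and 563 FPKM in the control. ESR1, PGR, CDH1 and EPCAM, the hormone receptor and epithelial genes that the line lacks or holds at low levels, summed to 2.07 against 3.78 FPKM. The summed level of 3 leukocyte markers was 0.115 against 0.0170 FPKM, that of 4 fibroblast markers 0.913 against 2.33 FPKM, and that of 2 endothelial markers 0.0307 against 0.0704 FPKM, with CD3E and CD68 listed at 0 in both. A listed 0 may be a failed estimate, since the files also list IKBKG, which most cells express, at 0 in both. The median coverage per FPKM was 12.4 under RBMS1 knockdown and 11.4 in the control, so 1 FPKM rested on nearly the same depth in each.

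With all assigned transcripts read, the 10 genes each had a lower value under RBMS1 knockdown than in the control (NFKB1 turned from annotated transcripts alone), against 47.2% of the tested genes. The difference ran from almost nothing in NFKBIB to about a 3-fold lower level in TNFAIP3. The ratio used below is log2 of FPKM plus 1 under RBMS1 knockdown over FPKM plus 1 in the control, a scale that understates the difference of low genes. Its median was -0.59 over the 10 members and 0.02 over all tested genes. RELB, TNFAIP3 and TNIP1 were at least 2-fold lower on this scale, 3 of 10, where 313 of the 11186 tested genes, 2.8%, were as low. With a pseudocount of 5 FPKM in place of 1 only TNIP1 was, and the log2 ratios of RELB and TNFAIP3 were -0.75 and -0.52. None of the 10 was at least 2-fold higher, as 2.96% of tested genes were. In bulk RNA, fewer cells with a transcript and less of it per cell cannot be told apart.

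**Figure D1:**
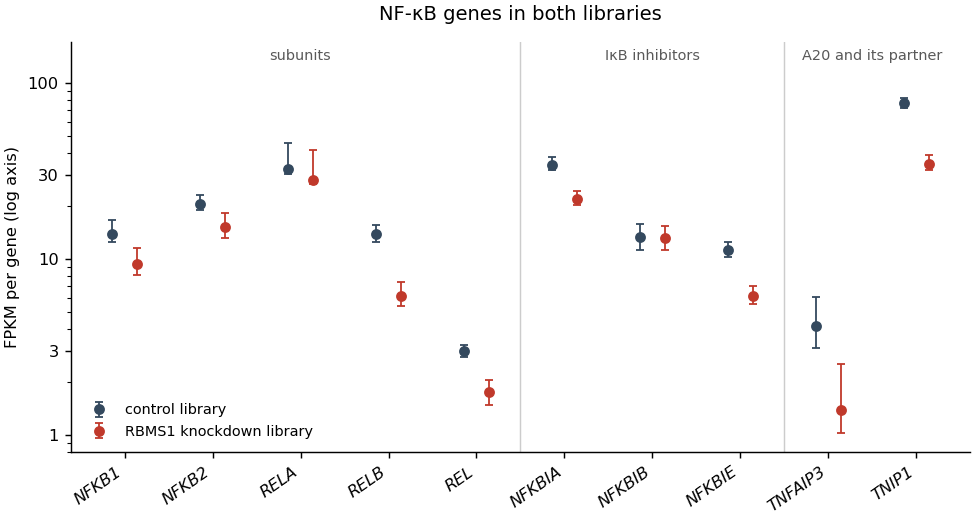
Level of each member in FPKM (vertical axis, log scale) in the control (dark points) and the RBMS1 knockdown library (red points), grouped by role, with bars for the 95% within-library limits summed over the transcripts of the gene. The red point is lower in every pair, by least in NFKBIB at 13.1 against 13.2 FPKM, and the widest gaps on the log axis are those of TNIP1, RELB and TNFAIP3.

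Precision within a library was read from the 95% intervals of Cufflinks, summed over the transcripts of a gene; they cover the assignment of fragments and not the difference between cultures. In 8 of the 10 genes the knockdown interval lay wholly under the control interval. That was so for 11.5% of tested genes, and 13.3% had the knockdown interval wholly above, which no member did. The exceptions were RELA and NFKBIB. A gene to which no assembled transcript was assigned in either library rests on annotated transcripts alone, and among such genes 4 of 5 members were lower with intervals apart, against 11.3% of 6108 genes.

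RELA, on chromosome 11 (65653596 to 65663094, minus strand), encodes p65, the subunit with the strongest activation domain in the canonical dimer. It was at 27.9 FPKM under RBMS1 knockdown and 32.1 FPKM in the control, or 87.0% of control, a log2 ratio of -0.19. It was the most abundant subunit gene in both libraries. A single transcript, RELA-202 (ENST00000406246, 551 residues), held all of this level, with intervals of 26.4 to 29.5 and 30.4 to 33.9 FPKM that were apart. Over the whole gene the intervals overlapped, at 26.4 to 41.4 and 30.4 to 45.6 FPKM, because the upper limits of transcripts listed at 0 are added in. RELA ranked 2597 of 11186 from the lowest ratio, inside the bulk of the tested genes.

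RELB had the lowest log2 ratio of the subunit genes when all transcripts were read. It lies on chromosome 19 (45001430 to 45038198, plus strand) and encodes the non-canonical subunit, which pairs with p52 and is itself made in response to RELA-containing dimers. Its level was 6.16 FPKM (5.35 to 7.38) under RBMS1 knockdown and 13.7 FPKM (12.4 to 15.5) in the control. The knockdown level was 44.9% of control, a log2 ratio of -1.04, and 2.65% of tested genes were as low. Both of its transcripts were lower. RELB-201 was at 5.33 against 11.7 FPKM, at a coverage of 65.2 against 133, and the minor RELB-202 at 0.837 against 2.06 FPKM. No assembled transcript entered the gene value.

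NFKB1 and NFKB2 encode the precursors p105 and p100, whose N-terminal parts become p50 and p52 and whose C-terminal ankyrin repeats act as an IκB. NFKB1, on chromosome 4 (102501329 to 102617302, plus strand), was at 9.27 FPKM (8.02 to 11.6) under RBMS1 knockdown and 13.9 FPKM (12.4 to 16.5) in the control. The knockdown level was 66.8% of control, a log2 ratio of -0.53. This direction rested on assembled transcripts, which held 18.6% of the NFKB1 level under RBMS1 knockdown and 54.5% in the control. From annotated transcripts alone the levels were 7.54 and 6.31 FPKM and the log2 ratio was 0.22, in the opposite direction. The annotated NFKB1-201, which encodes 969 residues, was at 4.64 FPKM under RBMS1 knockdown and 6.31 FPKM in the control. NFKB1-205 and NFKB1-212 were at 1.80 and 1.09 FPKM under RBMS1 knockdown and listed at 0 in the control. An assembled transcript beginning at position 102537587, in the body of the gene, was at 3.83 FPKM in the control and had no counterpart under RBMS1 knockdown.

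Summed over the transcripts that begin at the annotated 5′ end of NFKB1, the level was 6.37 FPKM (5.64 to 7.10) against 10.0 FPKM (9.08 to 11.01), or 63.4% of control. At this start, where the κB motif of the gene lies, the sum of annotated and assembled transcripts was thus lower after depletion.

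NFKB2, on chromosome 10 (102394110 to 102402529, plus strand), was at 15.2 FPKM (13.0 to 18.1) under RBMS1 knockdown and 20.5 FPKM (18.8 to 22.9) in the control, or 74.3% of control. The log2 ratio was -0.41, and -0.91 from annotated transcripts alone, where the levels were 10.4 and 20.5 FPKM. The gap between these ratios came from a single assembled transcript of the knockdown library, which at 4.78 FPKM held 31.4% of the gene. It has 11 exons over 1270 bases and ends at position 102398750, so it lacks the later exons of the 23-exon NFKB2-201, which is 3011 bases long. NFKB2-201 was at 6.37 FPKM under RBMS1 knockdown and 15.0 FPKM in the control. NFKB2-203, which begins at position 102394597 by the upstream site printed above, was at 2.39 against 5.43 FPKM. NFKB2-204, from a start farther upstream at 102394110, was at 1.65 FPKM under RBMS1 knockdown and listed at 0 in the control. By start site, transcripts of the downstream start, assembled one included, were at 74.2% of control and NFKB2-203 at 44.1%.

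REL, on chromosome 2 (60881521 to 60931610, plus strand), encodes c-Rel, the subunit best known from lymphocytes, and was the least abundant of the 5. It was at 1.75 FPKM (1.46 to 2.05) under RBMS1 knockdown and 2.99 FPKM (2.76 to 3.23) in the control, or 58.5% of control and a log2 ratio of -0.54. The annotated REL-201 alone was at 0.626 against 2.99 FPKM, 21.0% of control and a log2 ratio of -1.29, at a coverage of only 6.59 under RBMS1 knockdown against 29.9. Assembled transcripts held 64.1% of the knockdown level and none of the control level. They were at 0.619 and 0.501 FPKM and ended 319 bases past the annotated end of REL. A further annotated gene, AC010733.2, overlaps the last part of REL on the same strand, from position 60925909 to 60931610, at 2.70 against 3.39 FPKM, so reads from this part may be divided between both genes.

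**Figure D2:**
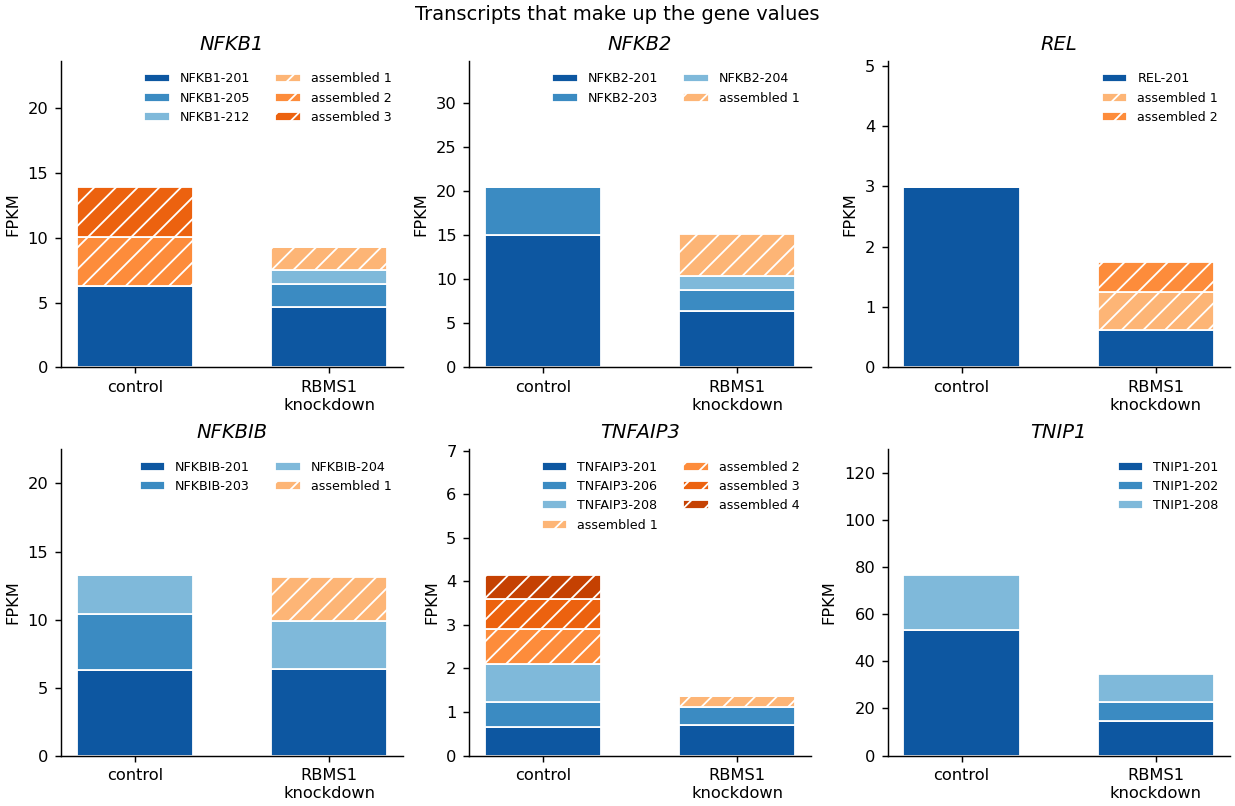
FPKM of each transcript above 0, stacked to the gene level, for the 5 members with assembled transcripts and for TNIP1, in the control and the RBMS1 knockdown library; blue parts are annotated transcripts and hatched orange parts assembled ones. Assembled parts occupy 54.5% of the NFKB1 bar of the control but 64.1% of the REL bar of the knockdown library, and the TNIP1 bars are made of annotated transcripts only.

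The make-up of the subunit pool was compared as shares of its summed FPKM. The 5 genes added up to 60.3 FPKM under RBMS1 knockdown and 83.2 FPKM in the control, 72.5% of control. RELB made up 10.2% of the pool under RBMS1 knockdown and 16.5% in the control, while RELA made up 46.3% and 38.6%. NFKB1 was 15.4% and 16.7%, NFKB2 25.2% and 24.6%, and REL 2.89% and 3.59%. These shares depended on assembled transcripts. From annotated transcripts alone, NFKB1 made up 14.3% and 8.34% of the pool, NFKB2 19.8% and 27.1%, and REL 1.19% and 3.95%. RELB was again the smaller share after knockdown, at 11.7% and 18.1%, and RELA the larger, at 53.0% and 42.5%. RNA shares say nothing of the amounts of protein or of dimers.

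The 3 IκB genes were at 63.4%, 54.9% and 98.9% of control for NFKBIA, NFKBIE and NFKBIB, and NFKBIB was at 74.4% from annotated transcripts alone. NFKBIA, on chromosome 14 (35401511 to 35404749, minus strand), encodes IκBα, the fast inhibitor that is degraded upon stimulation and made again as NF-κB switches its gene on. It was at 21.7 FPKM (20.2 to 24.3) under RBMS1 knockdown and 34.2 FPKM (32.1 to 37.5) in the control. This was 63.4% of control, a log2 ratio of -0.63 that 5.35% of tested genes were at or under. All of it was the annotated NFKBIA-201, of 317 residues, at a coverage of 262 against 383, so the value did not depend on how assembled transcripts were treated.

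NFKBIE, on chromosome 6 (44258166 to 44265788, minus strand), encodes IκBε, a slower feedback inhibitor. It was at 6.15 FPKM (5.51 to 7.02) under RBMS1 knockdown and 11.2 FPKM (10.3 to 12.4) in the control. The level was 54.9% of control, the lowest percentage among the IκB genes, with a log2 ratio of -0.77. Here too a single annotated transcript, NFKBIE-204, held the whole level.

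NFKBIB, on chromosome 19 (38899700 to 38908893, plus strand), encodes IκBβ, which is less tied to the feedback loop. It was at 13.1 FPKM (11.1 to 15.4) under RBMS1 knockdown and 13.2 FPKM (11.1 to 15.7) in the control, 98.9% of control. The log2 ratio was -0.01 and near the middle of all tested genes, at rank 5058, and the intervals overlapped almost wholly. The main coding transcript NFKBIB-201, of 356 residues, was at 6.34 against 6.29 FPKM. NFKBIB-203 is annotated as subject to nonsense-mediated decay, with a reading frame of only 65 residues. It was listed at 0 under RBMS1 knockdown and at 4.11 FPKM in the control. The other coding transcript, NFKBIB-204, was at 3.51 against 2.84 FPKM, so the lower annotated level lay in NFKBIB-203. An assembled transcript from the annotated gene start, at 3.25 FPKM, was found under RBMS1 knockdown only, and without it the log2 ratio was -0.39. SIRT2 overlaps NFKBIB on the opposite strand, at 7.10 against 9.18 FPKM, and the strand setting of the libraries is not given in the sources used here.

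Summed over the IκB genes, the level was 41.0 FPKM under RBMS1 knockdown and 58.7 FPKM in the control, or 69.8% of control. NFKBIB made up 32.0% of the IκB sum under RBMS1 knockdown and 22.6% in the control. From annotated transcripts alone the NFKBIB shares were 26.1% and 22.6%. The summed subunit level per FPKM of IκB level was 1.47 and 1.42, and 1.40 and 1.29 from annotated transcripts.

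TNIP1 and TNFAIP3 had the lowest log2 ratios of the set when all transcripts were read, while REL was the lowest from annotated transcripts alone. A20, the product of TNFAIP3, edits and removes ubiquitin chains on proteins upstream of the IκB kinase, and ABIN1, the product of TNIP1, binds A20 and ubiquitin and brings it to its substrates. TNIP1, on chromosome 5 (151029945 to 151093577, minus strand), was the most abundant of the 10 genes, at 34.7 FPKM (31.9 to 38.7) under RBMS1 knockdown and 76.4 FPKM (72.2 to 82.0) in the control. The level was 45.4% of control, with a log2 ratio of -1.12 that 2.34% of tested genes were at or under. TNIP1 was at least 2-fold lower under each of 10 other settings of pseudocount, transcripts, scaling and filter, the filters leaving its value as it was.

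The TNIP1 transcripts differed by start site. TNIP1-201, of 636 residues, begins at position 151087158 and was at 14.7 FPKM (13.6 to 15.8) under RBMS1 knockdown and 53.4 FPKM (50.7 to 56.1) in the control, or 27.6% of control. The transcripts that begin at the downstream start, from position 151081016 to 151081084, together were at 19.96 FPKM (18.3 to 21.7) and 23.0 FPKM (21.5 to 24.5), or 86.7% of control, and their intervals overlapped. The lower TNIP1 level was thus almost all in the transcript of the upstream start. TNIP1-201 made up 42.4% of the gene under RBMS1 knockdown and 69.9% in the control. Of the downstream pair, TNIP1-208, of 583 residues, was at 12.1 against 23.0 FPKM, and TNIP1-202, of 619 residues, was at 7.87 FPKM under RBMS1 knockdown and listed at 0 in the control. The κB match of TNIP1 printed above lies at the downstream start. No promoter window covered the upstream start, so it was not searched for the motif. Cufflinks divides shared reads among transcripts by estimate, and the division was not tested by other means here.

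TNFAIP3, on chromosome 6 (137867188 to 137883312, plus strand), had the lowest percentage of control when all transcripts were read and rested on little depth. It was at 1.37 FPKM (1.01 to 2.52) under RBMS1 knockdown and 4.14 FPKM (3.10 to 6.02) in the control, or 33.1% of control and a log2 ratio of -1.12. Assembled transcripts held 18.5% and 49.0% of these levels. From annotated transcripts alone TNFAIP3 was at 1.12 against 2.11 FPKM, 52.9% of control, and its log2 ratio of -0.56 was no longer 2-fold.

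The full-length TNFAIP3-201, which encodes 790 residues, was level between the libraries, at 0.693 FPKM (0.541 to 0.846) and 0.662 FPKM (0.499 to 0.826), on a coverage of 8.46 and 7.60. The difference lay in other transcripts. TNFAIP3-208, annotated for 214 residues only, was listed at 0 under RBMS1 knockdown and was at 0.878 FPKM in the control. Of the assembled transcripts, those beginning between positions 137866325 and 137866366 were at 0.253 against 0.794 FPKM. A further pair beginning at 137867011, also upstream of the annotated gene, was found in the control only, at 1.23 FPKM. TNFAIP3-206, whose start lies just before both κB matches, was at 0.424 against 0.571 FPKM. No TNFAIP3 transcript had a coverage above 10.1 in either library. The TNIP1 level was 25.3 times that of TNFAIP3 under RBMS1 knockdown and 18.5 times in the control, an order that turned to 31.03 and 36.2 times from annotated transcripts alone.

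**Figure D3:**
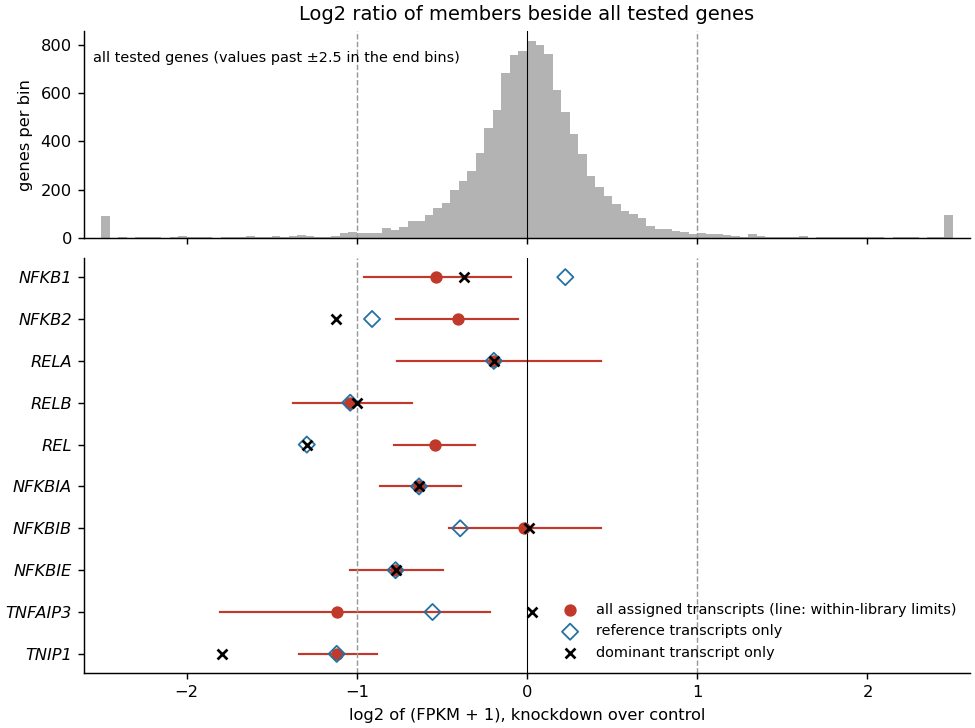
Upper panel: number of tested genes per bin of log2 ratio of FPKM plus 1, knockdown over control; lower panel: each member by all assigned transcripts (red points, with the ratio of the within-library limits as lines), by annotated transcripts only (diamonds) and by its dominant transcript (crosses). Red points of all 10 members lie left of 0 and 3 lie past the dashed line of a 2-fold lower level, while the diamond of NFKB1 lies at 0.22.

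The members were also read from annotated transcripts alone, which leaves out every assembled one. Their median log2 ratio was then -0.70, and RELB, REL and TNIP1 were at least 2-fold lower, 3 of 10 against 4.87% of 10407 genes. RELA, RELB, NFKBIA, NFKBIE and TNIP1 have the same value in both readings. NFKB2, REL and NFKBIB were lower without assembled transcripts than with them, TNFAIP3 was nearer to 0 and NFKB1 turned. RELB and TNIP1 were at least 2-fold lower in both readings.

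RNA-binding proteins often act through the 3′ untranslated region, where the pentamer ATTTA is the core of elements that shorten the life of a message. It was counted in the 3′ untranslated region of the main transcript of each member, on the sense strand. REL had 25 copies in 9078 bases, a length that only 0.719% of 10009 tested coding genes reach. TNFAIP3 had 5 copies in 1996 bases and NFKBIA 3 in 505 bases. The density in NFKBIA was 5.94 per kilobase, which 6.63% of genes reach. NFKB2 had the highest density of the set, 6.62 per kilobase, reached by 4.82% of genes, though from 1 copy in 151 bases. NFKB1 had 3 copies in 711 bases. RELA, RELB, NFKBIB, NFKBIE and TNIP1 had none, as did 30.6% of the tested coding genes. The members without the pentamer ran from a log2 ratio of -1.12 in TNIP1 to -0.01 in NFKBIB, and its part in the levels was not tested. The median density over the members was 1.25 per kilobase and that over all tested coding genes 1.66 per kilobase.

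The members were set beside the rest of the pathway in 4 lists, to be read against the 47.2% of all tested genes that were lower and the 2.8% that were at least 2-fold lower. Of 21 receptors and ligands that feed NF-κB, 14 were tested and 12 were lower. Their median log2 ratio was -0.27, with 2 genes at least 2-fold lower. These were the genes of the interleukin-1 ligands, which were under 1 FPKM after knockdown and so passed the filter on low values through the control: IL1B was at 0.570 against 5.97 FPKM, a log2 ratio of -2.15, and IL1A at 0.873 against 6.90 FPKM, a log2 ratio of -2.08. TLR2, a receptor of bacterial lipoproteins, followed at 1.14 against 2.32 FPKM, a log2 ratio of -0.63 that was -0.13 from annotated transcripts alone. The highest ratios were those of IL18, at 4.35 against 2.86 FPKM, and of TLR4, the receptor of endotoxin, at 2.13 against 1.73 FPKM. TNFRSF1A, the main TNF receptor and next in order, was at 23.0 against 24.7 FPKM.

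Of the kinases, adaptors and ubiquitin machinery that join receptors to IκB, 34 of 35 were tested, 21 were lower and 13 higher, and the median log2 ratio was -0.07. With annotated transcripts alone, 6 of the 34 changed direction and the median was -0.03. BIRC3, which encodes a ubiquitin ligase and is itself an NF-κB target, was the sole gene of the list at least 2-fold lower when all transcripts were read, at 9.35 against 30.9 FPKM. From annotated transcripts alone TAB3 and TRAF3, named here after their values were seen, were as well, with log2 ratios of -2.03 and -1.33. TRAF1, another target that encodes an adaptor, was at 2.95 against 6.74 FPKM, a log2 ratio of -0.97, and TRADD, which encodes the adaptor of the TNF receptor, at 2.68 against 5.15 FPKM. When all transcripts were read, UBE2N, which encodes the enzyme for K63-linked ubiquitin chains, had the highest ratio, at 40.4 against 15.2 FPKM. CARD10 followed at 7.97 against 4.38 FPKM and MAP3K3 at 13.4 against 7.85 FPKM. From annotated transcripts alone IKBKB, UBE2N and MAP3K3 were at least 2-fold higher, with log2 ratios of 3.17, 2.32 and 1.96. IKBKB, an IκB kinase gene named after its values were seen, was then at 7.97 FPKM against a listed 0. With all transcripts it was at 7.97 against 5.73 FPKM. The knockdown interval lay wholly under that of the control in 9 of the 34 genes and wholly above it in 3, against 11.5% and 13.3% of all tested genes.

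Of 23 other inhibitors and atypical IκB proteins, 18 were tested, 9 lower and 9 higher, and the median log2 ratio was 0.01. When only annotated transcripts were read, 4 of the 18 changed direction and the median was -0.13. ZC3H12A, which encodes an RNase that degrades inflammatory messages, was at 2.02 against 7.81 FPKM, a log2 ratio of -1.54. BCL3, which encodes an atypical nuclear IκB, was at 4.64 against 6.72 FPKM, and TOLLIP at 9.34 against 12.8 FPKM. SIGIRR, which encodes an inhibitory receptor of the interleukin-1 family, was at 3.77 against 0.893 FPKM with overlapping intervals, and passed the filter on low values through the knockdown library. TRAFD1 was at 6.51 against 5.79 FPKM. OTUD7B, which encodes a deubiquitinase, had a log2 ratio of 0.56 that turned to -1.11 when annotated transcripts alone were read.

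The list of target genes outside the feedback loop was, like the others, chosen with earlier results of these data known. Its counts therefore only describe it. Of its 33 genes, 25 were tested and 21 were lower, 14 of them at least 2-fold, with a median log2 ratio of -1.31. Of these 14, 4 were under 1 FPKM after knockdown and passed the filter on low values through the control, and 1, SQSTM1, named here after its value was seen, turned to higher from annotated transcripts alone. Over the whole list 4 of the 25 changed direction in that reading. Without the filter the median of the 32 targets with a value was -0.55, beside -0.59 for the members, so which of the medians was lower depended on the filter. The lowest ratios were those of LCN2, a siderophore-binding protein, at 0.199 against 35.3 FPKM, of the complement gene C3 at 0.113 against 10.7 FPKM, and of the acute-phase gene SAA1 at 44.3 against 433 FPKM. SAA1 has a nearly identical copy, SAA2, and whether reads were divided between them was not tested, so its value is uncertain. The highest were BCL2L1, which encodes the survival protein BCL-xL, at 139 against 90.5 FPKM, TAP1 at 22.6 against 18.4 FPKM and TNFAIP2 at 19.9 against 17.4 FPKM. TAP1 turned to a log2 ratio of -0.35 from annotated transcripts alone, at 14.2 against 18.4 FPKM.

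**Figure D4:**
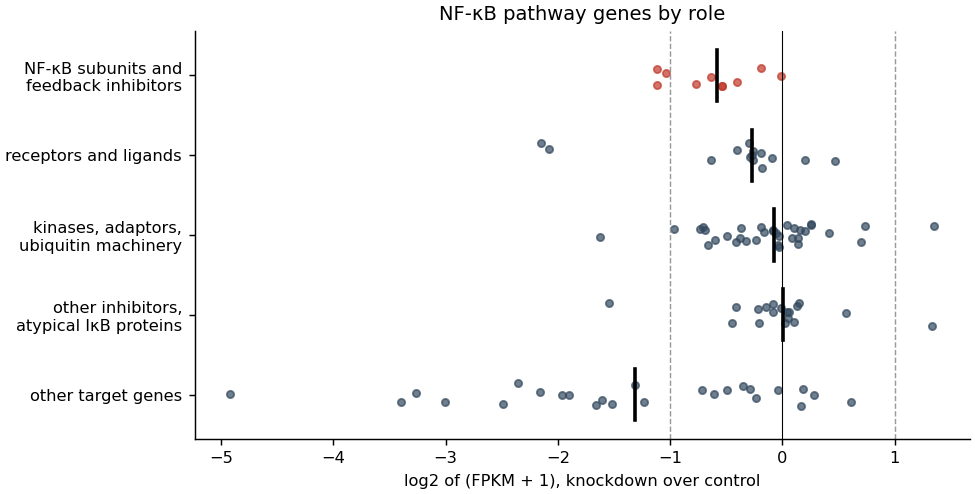
Log2 ratio of FPKM plus 1, knockdown over control, of each tested gene (points) and the median (black bars) in the members and in 4 pathway lists; vertical scatter within a row carries no value and dashed lines mark a 2-fold difference. With the filter on low values, the medians lie at -0.59 for the members, -0.27 for receptors and ligands and -0.07 for kinases and adaptors. They lie at 0.01 for other inhibitors and -1.31 for other targets. Members and lists were chosen with earlier results of these data known.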

How the data were processed

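Total RNA of both libraries was extracted with Trizol and made into standard Illumina libraries. Per the labels, the submitters' processing notes name Bowtie2 2.0.6, TopHat2 2.0.9, Cufflinks 2.1.1 and Cuffdiff 2.1.1. Genome build, annotation, read number and strand setting are not given in the sources used here. The authors deposited, for each library, every transcript with its FPKM, a 95% interval and coverage, 246627 for the knockdown library and 250516 for the control. They also deposited their own comparison, with FPKM, log2 fold change, p-value and q-value per transcript, which was not used.

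Reference transcripts were joined to GENCODE 29 by identifier, and 98.1% had the same start, so coordinates are those of GRCh38. Assembled transcripts were added to the gene on the same strand with which they shared most introns, at least 1; of 60329 and 64210, 6507 and 6583 were assigned, and the unassigned ones held 54.9% and 60.3% of the summed FPKM. Gene values are sums of transcript FPKM. Ratios used a pseudocount of 1 FPKM and genes with a mean of at least 1 FPKM. Intervals cover error within a library only. With 1 library per group no test was run. The ratio step was tested on simulated data. Scripts used Python 3.11.15, numpy 2.4.6, pandas 2.3.3 and matplotlib 3.10.9.

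Members and lists were chosen with earlier results of these data known. Named genes were all members, RBMS1, and the 3 lowest and 3 highest ratios of each pathway list. Genes overlapping a member with a mean of at least 1 FPKM were named too. Cell type markers, IKBKG, IKBKB, SAA2, TAB3, TRAF3 and SQSTM1 are named beside this rule, all but the markers after the values were seen. SOD2 has no value, since GENCODE gives its symbol to 2 genes. A further marker gene is not reported here. Promoters are from RefSeq. Alternatives were 10 other settings of pseudocount, transcripts, scaling and filter, plus 1 added after seeing the data.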

Additional observations from a re-analysis of the deposited data

Results flagged for a closer look

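Assembled transcripts that share no intron with an annotated gene entered none of the values above, and some of them lay within introns of the members. At NFKB1 there were 5 under RBMS1 knockdown, with a summed level of 7.35 FPKM, and 1 in the control, at 1.40 FPKM. At REL there were 6 under RBMS1 knockdown, with a summed level of 7.90 FPKM, and 2 in the control, with 5.81 FPKM. Each was a single exon on the same strand as the member, and a sum over short fragments assembled separately in each library moves with how much was assembled. TNIP1 held 4 under RBMS1 knockdown and 2 in the control, at 2.19 and 2.56 FPKM, and TNFAIP3 held 1 in the control, at 0.631 FPKM. The part of these intronic transcripts in the levels of NFKB1 and REL was not tested. Over each whole library, 60329 transcripts were assembled under RBMS1 knockdown and 64210 in the control. The unassigned ones held 54.9% and 60.3% of the summed FPKM.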

How the results depend on the processing

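No paired analysis was possible because each group has 1 library. The members' median ranged from -0.77 to -0.46 over the settings run. With a pseudocount of 5 FPKM, 1 member, TNIP1, was at least 2-fold lower, the gene counts were 133 lower and 124 higher, and the median of the other targets was -0.63. With no filter on low values that median was -0.55. The counts of genes at least 2-fold lower and higher were 313 and 331 as reported, 507 and 553 from annotated transcripts, 477 and 500 from dominant transcripts, 671 and 662 in TPM, 138 and 140 with a mean of at least 5 FPKM, and 171 and 169 among genes above 0 in both libraries. Among genes without assembled transcripts, a setting chosen after seeing the data, they were 186 and 206. Over the settings that could be applied, RELB ranged from -1.14 to -0.75, TNIP1 from -1.79 to -1.04, REL from -1.29 to -0.24, TNFAIP3 from -1.53 to -0.52 and NFKB2 from -1.12 to -0.33. NFKB1 reached 0.22 from annotated transcripts and NFKBIB 0.01 from its dominant transcript. The dominant transcript of TNFAIP3, under the filter on low values, gave 0.03. RELA, NFKBIA and NFKBIE stayed below 0 in each setting run. Under the scalings the median of all genes lay between -0.01 and 0.02. Why values moved was not tested. REL and TNFAIP3 rest on little depth.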

Other observations

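The pentamer ATATA, which proteins of the RBMS family are known to prefer in vitro, was counted in the same 3′ untranslated regions after the data were seen. REL had 23 copies and TNFAIP3 had 3, and NFKBIB had 1 in a region of only 57 bases. NFKB1, NFKB2, RELA, RELB, NFKBIA, NFKBIE and TNIP1 had none, as did 42.6% of the 10009 tested coding genes. The members' regions were 53.2% A and T at the median, and those of all tested coding genes 58.6%.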
